A study of Mus musculus with 15 samples.

Results

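The Lhx genes encode transcription factors that carry a pair of LIM domains and a homeodomain. Their levels were described in RNA-seq libraries from 5 brain regions dissected from E12.5 (mid-gestation) mouse embryos. The family was taken as the 8 genes Lhx1, Lhx2, Lhx3, Lhx4, Lhx5, Lhx6, Lhx8 and Lhx9, matched by gene symbol in a table of 24264 genes, in which all 8 were found. The ventral midbrain, forebrain, hindbrain, dorsal midbrain and alar plate were represented by 3 libraries each. All embryos were C57bl/6 mice expressing green fluorescent protein from the promoter of Th, the gene for tyrosine hydroxylase. No treatment or other genotype was part of the design. The level of the brain from which the alar plate was taken is not stated in the labels. Nor is it stated whether replicates stand for different embryos, and p-values here cover only the variation among these libraries. Values are RPKM as deposited, read counts scaled to gene length and to the mapped reads of each library.

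LIM-homeodomain proteins bind DNA through the homeodomain, while the LIM domains bind the cofactor Ldb1, which joins them into larger complexes. Close paralogues share the same domains and are often active in the same cells: Lhx1 with Lhx5, Lhx2 with Lhx9, Lhx3 with Lhx4, and Lhx6 with Lhx8. In the embryonic brain and spinal cord such genes mark classes of neurons and progenitors. Lhx2 is needed for the cerebral cortex and the eye, Lhx9 for the gonad, Lhx3 and Lhx4 for motor neurons and the pituitary, Lhx1 and Lhx5 mark interneurons and cerebellar Purkinje cells, Lhx6 marks cortical interneurons born in the basal forebrain, and Lhx8 marks cholinergic neurons of the basal forebrain.

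Of the 8 genes, 5 reached at least 1 RPKM in at least 3 libraries and were tested. These were Lhx1, Lhx2, Lhx4, Lhx5 and Lhx9. Lhx4 passed only through the ventral midbrain and hindbrain, so its differences from the other 3 regions, and its call among the 5 regions, were fixed by that filter and are given as description. Lhx3, Lhx6 and Lhx8 did not pass and are described by their reads. Differences were computed from log2(RPKM + 1), where the added 1 shrinks the fold changes of weakly expressed genes, by limma, with Benjamini-Hochberg adjustment over 13745 genes. A difference was called at an adjusted p under 0.05. In a test of any difference among the 5 regions, Lhx2, Lhx4, Lhx5 and Lhx9 were called (adjusted p of 2.05e-05, 9.33e-10, 0.0126 and 2.16e-06 in limma's F test) and Lhx1 was not (adjusted p = 0.201), where 33.7% of all genes tested were called. Without hindbrain 1 the call of Lhx5 was lost (adjusted p = 0.0524).

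The labels were checked against region markers before the Lhx genes were compared. Tcf7l2, a factor of the thalamus and pretectum, was at 403, 259 and 132 RPKM in forebrain 1, 2 and 3, and at 378 RPKM in dorsal midbrain 3 and 215 RPKM in alar plate 3. It was at 22.9 and 18.9 RPKM in dorsal midbrain 1 and 2, at 57.9 and 80.4 RPKM in alar plate 1 and 2, and at most 3.62 RPKM in the other regions. Forebrain 1, dorsal midbrain 3 and alar plate 3 also had the highest Gbx2, another thalamic gene, at 111, 14.1 and 73.0 RPKM. The same 3 libraries stood apart from the other libraries of their region, with Pearson r of 0.925 to 0.971 across genes, against 0.987 to 0.995 between the other 2. Alar plate 3 further had an RPKM sum of 489420, against 374280 to 390992 elsewhere. Floor plate and ventral midbrain gene Foxa2 was at 16.2 and 20.6 RPKM in forebrain 2 and 3 but at 0.137 RPKM in forebrain 1. Hoxb2, a hindbrain gene, was at 0, 8.99 and 3.05 RPKM in hindbrain 1, 2 and 3. Libraries held 8330771 to 12601534 recovered reads, and 3 reads, the lowest amount treated as detectable, were worth between 0.0376 and 0.171 RPKM for the 8 genes. Such floors cover counting error only. In bulk tissue, fewer cells of a type and less RNA per cell cannot be told apart.

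Promoter sequence is shown for Lhx2 and Lhx9, whose levels moved together across libraries, for Lhx4, which was high where they were low, and for Lhx1, which faces the noncoding gene Lhx1os across a short gap. RefSeq windows (GRCm38.p6) were found for 7 of the 8 genes, with no entry for Lhx5. Each sequence runs 5′ to 3′ and ends just before a RefSeq start, or further upstream where annotated exon bases of the gene were trimmed. Exons beyond the window were not looked for, and another Lhx2 window, which lay wholly within exons, is not shown. Capitals mark TAAT or its reverse complement ATTA, the core that homeodomain proteins bind.
Lhx2, chr2:38339031-38339280, plus strand: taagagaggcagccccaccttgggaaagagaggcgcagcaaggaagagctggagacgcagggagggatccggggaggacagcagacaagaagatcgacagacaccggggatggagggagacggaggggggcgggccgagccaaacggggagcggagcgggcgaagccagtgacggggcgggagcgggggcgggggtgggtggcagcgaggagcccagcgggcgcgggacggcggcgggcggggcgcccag
Lhx9, chr1:138842458-138842694, minus strand: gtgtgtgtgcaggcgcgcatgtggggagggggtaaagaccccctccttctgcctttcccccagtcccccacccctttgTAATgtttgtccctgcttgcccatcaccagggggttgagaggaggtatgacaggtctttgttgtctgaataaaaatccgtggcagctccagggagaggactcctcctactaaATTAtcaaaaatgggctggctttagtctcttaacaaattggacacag
Lhx4, chr1:155742028-155742277, minus strand: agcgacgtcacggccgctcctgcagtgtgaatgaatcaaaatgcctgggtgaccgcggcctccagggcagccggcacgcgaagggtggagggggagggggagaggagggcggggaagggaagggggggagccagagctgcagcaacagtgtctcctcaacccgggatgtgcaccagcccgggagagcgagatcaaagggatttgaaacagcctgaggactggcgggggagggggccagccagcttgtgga
Lhx1, chr11:84525536-84525784, minus strand: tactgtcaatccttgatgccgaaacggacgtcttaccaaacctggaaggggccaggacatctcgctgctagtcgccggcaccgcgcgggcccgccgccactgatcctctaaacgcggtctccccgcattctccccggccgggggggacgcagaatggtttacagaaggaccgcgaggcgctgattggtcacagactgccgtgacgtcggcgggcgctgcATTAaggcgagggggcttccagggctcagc
The Lhx2 and Lhx4 windows held no such core, the Lhx9 window held 2 and the Lhx1 window held 1. Of 32851 promoter windows of 250 bases in the same table, 54.9% held at least 1 TAAT or ATTA on either strand. The longer palindrome TAATTA, which contains both cores, was in none of the 4 sequences and in 4.84% of all windows. The Lhx2, Lhx4 and Lhx1 windows were rich in G and C (72.8%, 66.0% and 64.7%, with 25, 14 and 26 CpG), and the Lhx9 window had 52.3% and 3 CpG, where the median window had 52.4% and 6. A match is a description of these letters, and no match says nothing about binding.

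The 5 tested genes gave 23 calls in 50 tests over the 10 pairs of regions, 9 higher and 14 lower in the first region named. Of these, 6 were the Lhx4 contrasts that the filter fixed, and 17 of the other 44 tests were called, 4 higher and 13 lower. Over all genes 12.4% of such tests were called, and for each pair the share of all 13745 genes called is set beside the members, with nothing read from it for the fixed Lhx4 contrasts. The ventral midbrain against the forebrain had Lhx4 higher and Lhx2 and Lhx9 lower, where 8.33% of all genes were called (6.39% higher and 1.94% lower). The ventral midbrain against the hindbrain had Lhx4 higher and Lhx5 and Lhx9 lower, where 3.8% were called (2.39% higher and 1.4% lower). Lhx4 was higher and Lhx2 and Lhx9 lower also against the dorsal midbrain, where 23.9% were called (11.4% higher and 12.4% lower), and against the alar plate, where 14.2% were (9.12% higher and 5.13% lower).

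The forebrain against the hindbrain had 4 of the 5 genes called, Lhx2 and Lhx9 higher and Lhx4 and Lhx5 lower, where 2.7% of all genes were called (0.567% higher and 2.13% lower). The hindbrain against the dorsal midbrain also had 4, Lhx4 and Lhx5 higher and Lhx2 and Lhx9 lower, where 32.1% were called (14.7% higher and 17.4% lower). The hindbrain against the alar plate had 3, Lhx4 higher and Lhx2 and Lhx9 lower, where 9.97% were called (6.48% higher and 3.49% lower). None of the 5 was called by limma between the forebrain and the dorsal midbrain, where 27.3% of all genes were (11% higher and 16.3% lower), between the forebrain and the alar plate, where 0.0946% were (0.0437% higher and 0.0509% lower), or between the dorsal midbrain and the alar plate, where 1.67% were (1.26% higher and 0.415% lower). At an unadjusted p under 0.05 these 3 pairs had 0, 2 and 0 of the 5, and limma-voom on recovered reads called 0 of the 4 it could fit. Pairs that share a region share its libraries, so the counts are not independent. Without the 3 libraries that stood apart, 38 of the 50 tests were called, and the share over all genes was then 37.3%.

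**Figure D1:**
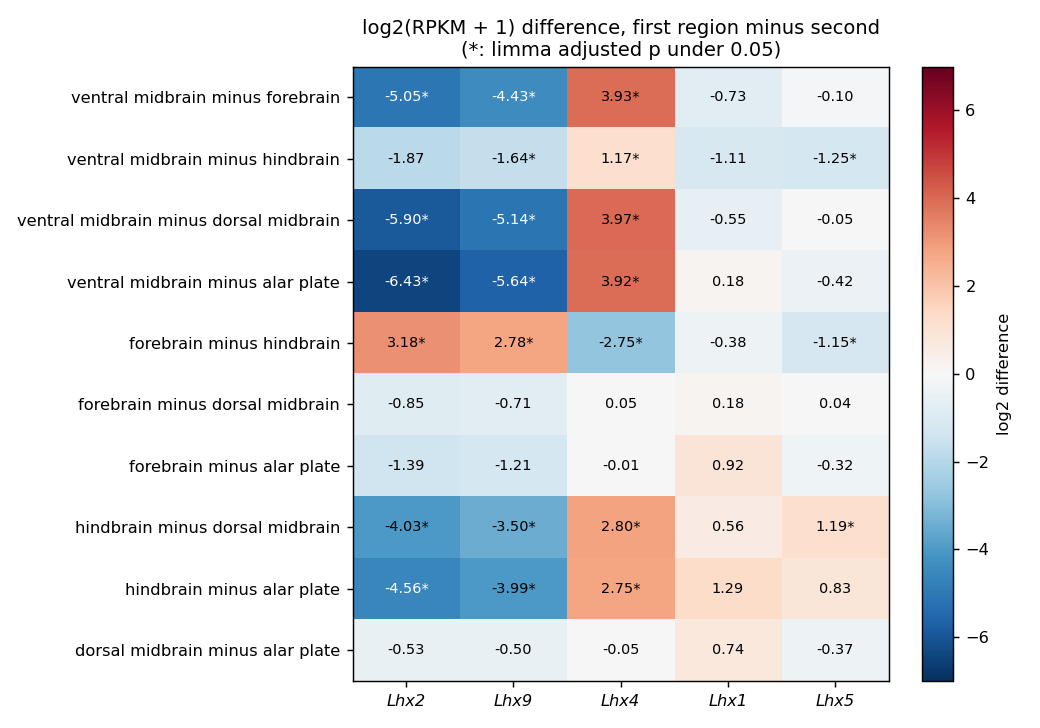
Differences on the log2(RPKM + 1) scale for the 5 tested Lhx genes (columns) in the 10 pairs of regions (rows, first region minus second), with red for higher and blue for lower in the first region. Asterisks mark limma adjusted p under 0.05; Lhx1 carries none, and no gene is marked between the forebrain, dorsal midbrain and alar plate.

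**Figure D2:**
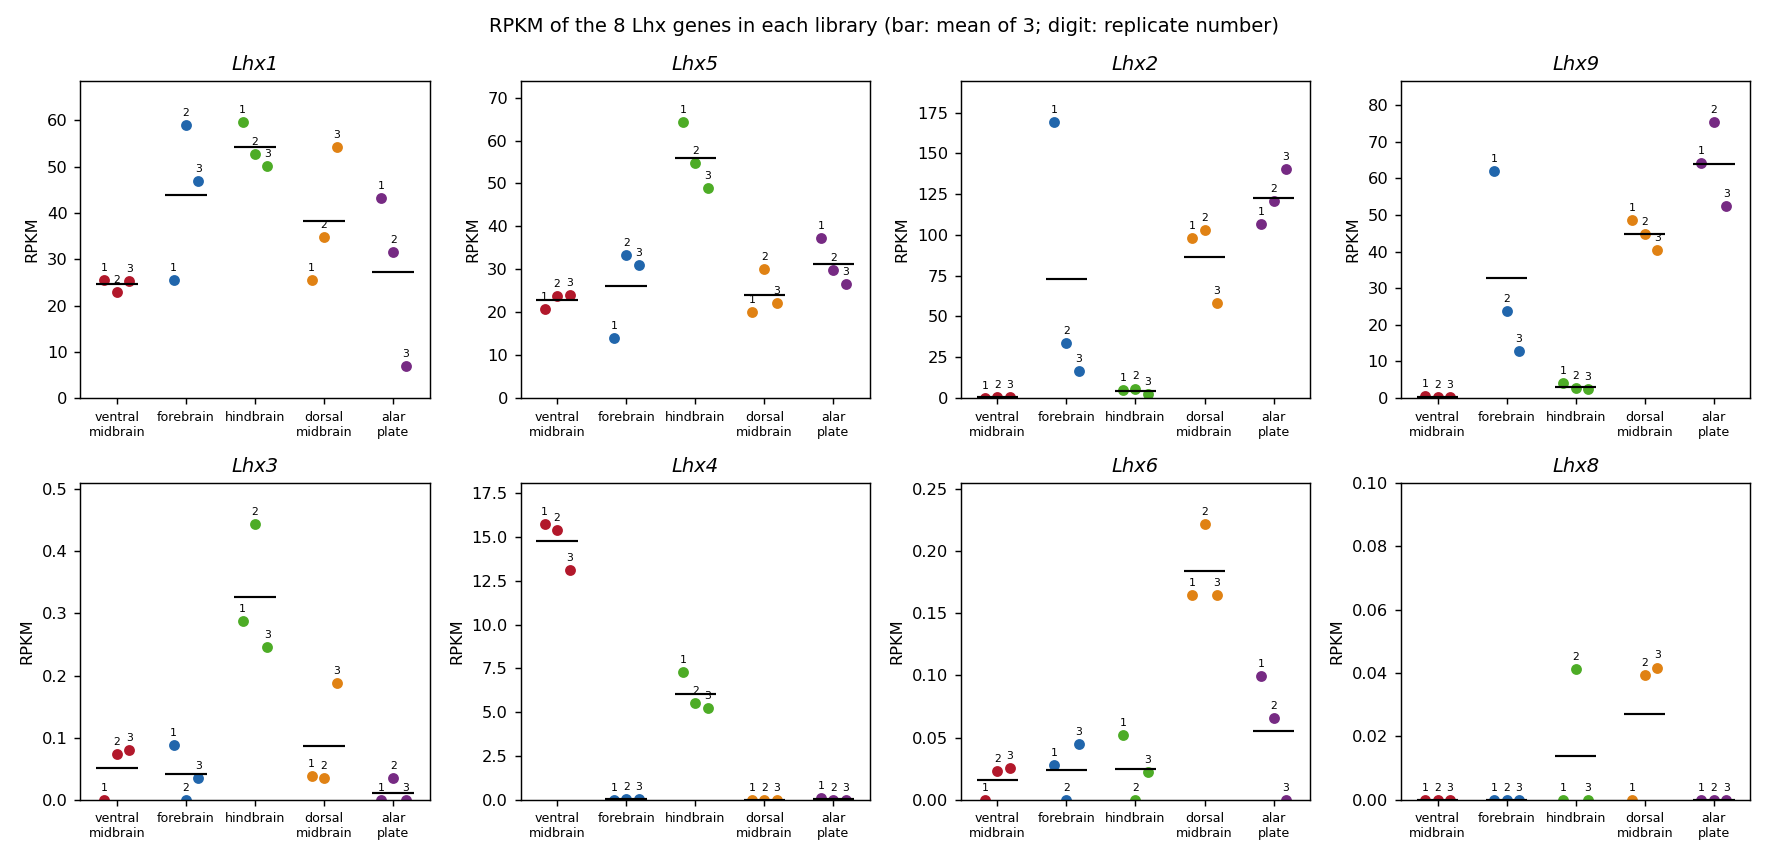
RPKM of each Lhx gene (vertical axes, linear, on a different scale in each panel) in the 15 libraries by region. Points are libraries with their replicate number and bars are means of 3; Lhx2 and Lhx9 are near 0 in the ventral midbrain, Lhx4 is above 5 RPKM in the ventral midbrain and hindbrain libraries, and Lhx3, Lhx6 and Lhx8 stay below 0.5 RPKM in every library.

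Lhx2 and Lhx9 were abundant in the dorsal midbrain, alar plate and forebrain and nearly absent from the ventral midbrain. Lhx2 was at 0.279, 0.536 and 0.467 RPKM in ventral midbrain 1, 2 and 3, and at 169, 33.7 and 16.6 RPKM in forebrain 1, 2 and 3. It was at 4.94, 5.83 and 2.45 RPKM in hindbrain 1, 2 and 3. The dorsal midbrain had 97.9, 103 and 58.5 RPKM and the alar plate 107, 121 and 141 RPKM in the same order. The ventral midbrain values, which rest on 6, 15 and 12 reads, lay below all 12 others, the hindbrain values came next, and no library of either region reached those of the other 3 regions. The forebrain spread over the whole range from 16.6 to 169 RPKM, so it overlapped the dorsal midbrain and the alar plate.

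In the ventral midbrain Lhx2 was lower than in the forebrain by a log2 difference of -5.05 ± 0.59 (SE, limma adjusted p = 0.000132), than in the dorsal midbrain by -5.90 (adjusted p = 2.19e-05) and than in the alar plate by -6.43 (adjusted p = 1.26e-05). Against the hindbrain the difference of -1.87 was not called (adjusted p = 0.121), although the libraries did not overlap. That contrast was called without forebrain 1 (adjusted p = 0.00276) or forebrain 3 (adjusted p = 0.0451), whose spread enters the common estimate of error, and with a pseudocount of 0.1 RPKM (-3.04, adjusted p = 0.0174). The hindbrain was lower than the dorsal midbrain by -4.03 (adjusted p = 0.000641) and than the alar plate by -4.56 (adjusted p = 0.000387), and the forebrain was higher than the hindbrain by 3.18 (adjusted p = 0.00793). With only the forebrain and hindbrain fitted, that last difference was not called (adjusted p = 0.123).

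Lhx9 followed the same order. It was at 0.436, 0.204 and 0.254 RPKM in ventral midbrain 1, 2 and 3, at 62.0, 23.9 and 12.7 RPKM in forebrain 1, 2 and 3, and at 4.18, 2.74 and 2.41 RPKM in hindbrain 1, 2 and 3. The dorsal midbrain had 48.8, 44.9 and 40.5 RPKM and the alar plate 64.3, 75.3 and 52.6 RPKM. As with Lhx2, the ventral midbrain lay below every other library and the hindbrain lay between it and the other 3 regions. Forebrain 1 lay within the alar plate range for Lhx9, while forebrain 2 and 3 stood below the dorsal midbrain. The ventral midbrain was lower than the forebrain by -4.43 ± 0.39 (SE, limma adjusted p = 1.37e-05), than the dorsal midbrain by -5.14 (adjusted p = 2.8e-06) and than the alar plate by -5.64 (adjusted p = 1.16e-06). It was also lower than the hindbrain by -1.64 (adjusted p = 0.0323), a call lost when any 1 of these 6 libraries was left out (adjusted p of 0.101, 0.122 and 0.117 for leaving out ventral midbrain 1, 2 or 3, and of 0.108, 0.0925 and 0.0761 for hindbrain 1, 2 or 3). The forebrain was higher than the hindbrain by 2.78 (adjusted p = 0.00114, or 0.0544 with only these 2 regions fitted). The hindbrain was lower than the dorsal midbrain by -3.50 and than the alar plate by -3.99 (adjusted p of 8.41e-05 and 4.34e-05).

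Neither gene separated the forebrain, dorsal midbrain and alar plate in the fit of all libraries. The forebrain differed from the dorsal midbrain by -0.85 for Lhx2 and -0.71 for Lhx9, and from the alar plate by -1.39 and -1.21 (adjusted p of 0.3, 0.188, 0.201 and 0.16). These results changed when forebrain 1 was left out. The forebrain was then lower than the dorsal midbrain by -1.78 for Lhx2 and -1.30 for Lhx9 (limma adjusted p of 0.00255 and 0.00248). It was lower than the alar plate by -2.31 and -1.80 (limma adjusted p of 0.00523 and 0.00347). The share of all gene-by-pair tests called was 14.8% without forebrain 1, against 12.4% with all libraries. Between the dorsal midbrain and the alar plate the differences were -0.53 ± 0.59 for Lhx2 and -0.50 ± 0.39 for Lhx9 (SE, adjusted p of 0.603 and 0.456), although the 3 alar plate libraries lay above the 3 dorsal midbrain libraries for both genes. Forebrain 1 was also the library with the highest Tcf7l2 and Gbx2. The part that the makeup of this library had in the Lhx2 and Lhx9 values was not tested.

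Across the 15 libraries, Lhx2 and Lhx9 had a Pearson r of 0.992 with each other on the log2(RPKM + 1) scale, and each was the gene most like the other among 10304 genes ranked. The 15 points share the 5 regions, so this r describes the regional pattern and not 15 independent samples. Fam107b came second for both, at 0.970 for Lhx2 and 0.964 for Lhx9, followed by Smarcd1 for Lhx2 (0.953) and Barhl2 for Lhx9 (0.963). Fam107b and Smarcd1 covered a much narrower range, with region means of 14.9 to 21.2 RPKM and 74.0 to 99.6 RPKM. Barhl2, a homeobox gene of the diencephalon and tectum, ranged as widely as Lhx9, with means of 0.308 RPKM in the ventral midbrain, 19.5 in the forebrain, 1.19 in the hindbrain, 44.4 in the dorsal midbrain and 43.6 in the alar plate. The ratio of Lhx2 to Lhx9 within a library was 1.31 to 2.72 in the forebrain, 1.01 to 2.13 in the hindbrain, 1.44 to 2.30 in the dorsal midbrain and 1.60 to 2.67 in the alar plate. Forebrain 1 and alar plate 3 had the highest ratios of these 12 libraries, at 2.72 and 2.67. In the ventral midbrain, with 6 to 23 reads per gene, the ratio was 0.640, 2.63 and 1.84.

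**Figure D3:**
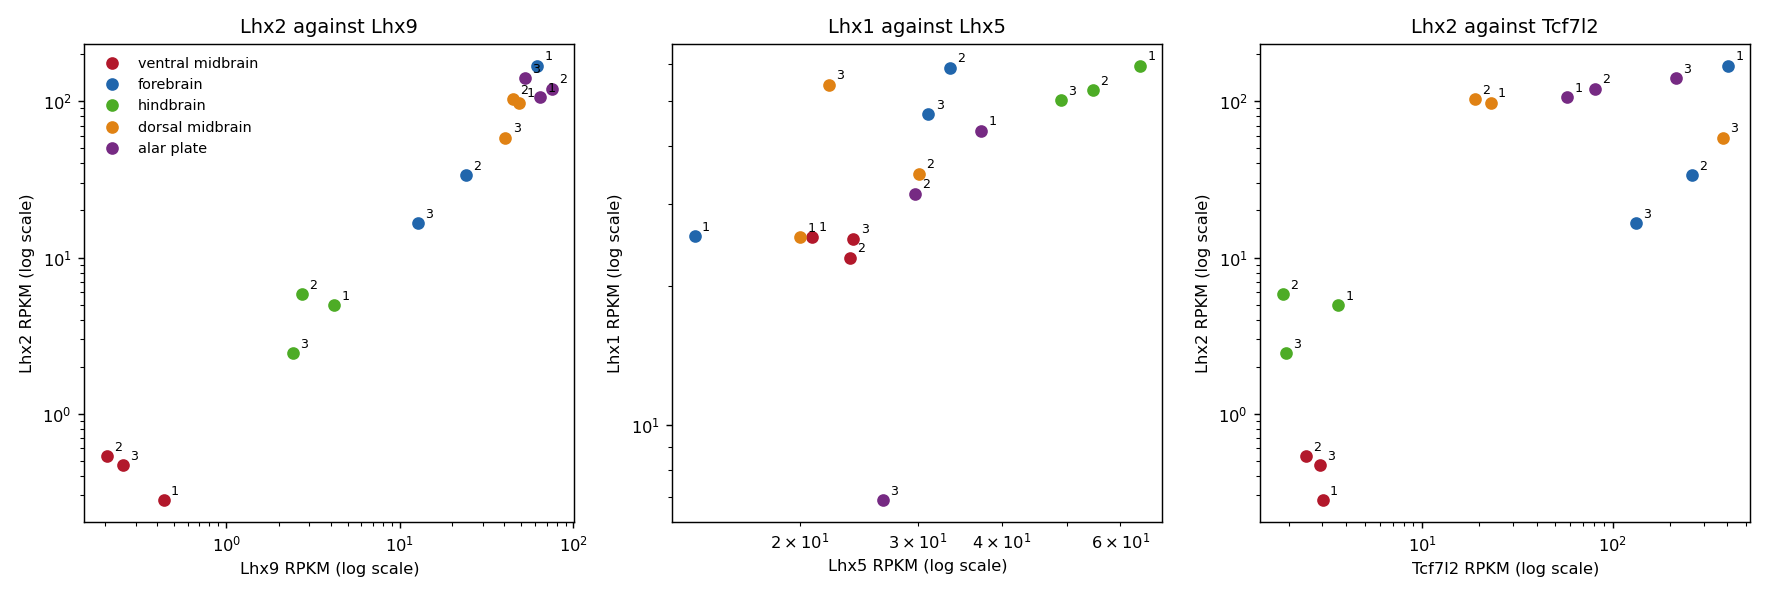
RPKM of gene pairs in the 15 libraries on log axes, coloured by region and numbered by replicate: Lhx2 against Lhx9, Lhx1 against Lhx5, and Lhx2 against Tcf7l2. Lhx2 and Lhx9 line up with the ventral midbrain lowest; alar plate 3 is the lowest library for Lhx1 at 6.90 RPKM; Lhx2 in dorsal midbrain 1 and 2 is at 97.9 and 103 RPKM with Tcf7l2 at 22.9 and 18.9 RPKM.

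Genes of the diencephalon and tectum listed as companions of this pair (Tcf7l2, Gbx2, Shox2, Barhl2, Pou4f1 and Dbx1) were lower in the ventral midbrain in part. The list was chosen with earlier results of these data known, so its counts and medians are description only. Of the 6, 4 were lower than in the forebrain, 4 lower than in the dorsal midbrain and 4 lower than in the alar plate, in each case Tcf7l2, Shox2, Barhl2 and Dbx1, and none was higher, where 1.94%, 12.4% and 5.13% of all genes were lower. Against the hindbrain Shox2 and Dbx1 were lower and Pou4f1 was higher, where 1.4% of all genes were lower and 2.39% higher, and the median was -0.91 against 0.00 for all genes. In the other 3 comparisons the medians of the 6 were -4.10, -4.49 and -4.82, against 0.00 for all genes in the first comparison, -0.05 in the second and -0.01 in the third. In dorsal midbrain 1 and 2 Lhx2 was at 97.9 and 103 RPKM with Tcf7l2 at 22.9 and 18.9 RPKM. Forebrain 3 had Lhx2 at 16.6 RPKM with Tcf7l2 at 132 RPKM. Mesenchymal genes (Col1a1, Col1a2, Col3a1 and Lum) were also high on the dorsal side. Their summed level was 3.60 to 3.90 RPKM in the ventral midbrain, 2.92 to 13.0 in the forebrain, 2.45 to 5.64 in the hindbrain, 57.6 to 112 in the dorsal midbrain and 7.75 to 146 in the alar plate, and Lum was at 0 in 3 ventral midbrain libraries and 2 hindbrain libraries. Lhx2 was at 121 RPKM in the alar plate library with the lowest sum and at 107 RPKM in the one with the highest.

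Lhx4 had the opposite pattern, with little spread within regions. It was at 15.7, 15.4 and 13.1 RPKM in ventral midbrain 1, 2 and 3 and at 7.31, 5.51 and 5.24 RPKM in hindbrain 1, 2 and 3. In reads these were 277, 352 and 276 and 150, 126 and 126. The forebrain libraries held 0, 1 and 1 reads, the dorsal midbrain 0, 0 and 0 and the alar plate 3, 0 and 0, all at or under the amount treated as detectable. The regions were fully separate in the order ventral midbrain, hindbrain and then the other 3, which cannot be ordered at this depth.

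The ventral midbrain exceeded the hindbrain by a log2 difference of 1.17 ± 0.12 (SE, limma adjusted p = 8.8e-05), with an adjusted p of 0.0507 at a pseudocount of 0.1 RPKM. It exceeded the forebrain by 3.93, the dorsal midbrain by 3.97 and the alar plate by 3.92 (adjusted p of 1.37e-09, 1.18e-09 and 1.4e-09). The hindbrain exceeded the dorsal midbrain by 2.80 and the alar plate by 2.75, and the forebrain was lower than the hindbrain by -2.75 (adjusted p of 3.42e-08, 4.33e-08 and 4.39e-08). Counted in reads over the group, the ventral midbrain was at least 339-fold higher than the dorsal midbrain, taking 3 reads over the group as the floor. Against the 2 reads of the forebrain the ratio was 451 (95% exact interval 124 to 3726), and against the 3 reads of the alar plate it was 348 (119 to 1689), both intervals covering counting error only. The hindbrain was at least 137-fold higher than the dorsal midbrain on the same floor.

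Over the 15 libraries the genes most like Lhx4 were Corin (Pearson r = 0.987), Fev (0.976) and Plod2 (0.974). Corin averaged 35.6 RPKM in the ventral midbrain, 0.754 in the forebrain, 17.2 in the hindbrain, 0.142 in the dorsal midbrain and 0.084 in the alar plate. Lhx4 had an r of -0.950 with Lhx2 and -0.962 with Lhx9, over points that again share the regions.

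Lhx3, the paralogue of Lhx4, was barely detected. It had 0, 2 and 2 reads in ventral midbrain 1, 2 and 3, and forebrain libraries had 2, 0 and 1. Hindbrain libraries had 7, 12 and 7 reads, or 0.288, 0.444 and 0.246 RPKM, the dorsal midbrain 1, 1 and 5 and the alar plate 0, 1 and 0. The hindbrain was the only region in which all 3 libraries passed 3 reads, and its libraries lay above all others. With no filter on low values, where 24.8% of 19912 genes were called, the F test called Lhx3 (adjusted p = 0.00521). At this depth Lhx3 was not detectable in the ventral midbrain, where Lhx4 was highest.

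Lhx1 and Lhx5 were present in every library, and Lhx5 was highest in the hindbrain. Lhx5 was at 20.8, 23.7 and 24.0 RPKM in ventral midbrain 1, 2 and 3, at 14.0, 33.4 and 31.1 RPKM in forebrain 1, 2 and 3, and at 64.2, 54.7 and 48.9 RPKM in hindbrain 1, 2 and 3. The dorsal midbrain had 20.0, 30.1 and 22.1 RPKM and the alar plate 37.3, 29.7 and 26.6 RPKM. The 3 hindbrain libraries lay above the other 12, and the remaining regions overlapped each other except the alar plate and the ventral midbrain. Lhx5 was lower in the ventral midbrain than in the hindbrain by -1.25 ± 0.26 (SE, limma adjusted p = 0.0163), lower in the forebrain than in the hindbrain by -1.15 (adjusted p = 0.0329) and higher in the hindbrain than in the dorsal midbrain by 1.19 (adjusted p = 0.00568). The hindbrain exceeded the alar plate by 0.83, which was not called (adjusted p = 0.0627) but was called without forebrain 1 (adjusted p = 0.00614) or alar plate 1 (adjusted p = 0.0453). The first 2 calls were close to the threshold. For the ventral midbrain, leaving out ventral midbrain 1, 2 or 3 gave an adjusted p of 0.0929, 0.06 or 0.0586, and leaving out hindbrain 1 or 2 gave 0.0656 or 0.0647. For the forebrain, leaving out hindbrain 1, 2 or 3 gave 0.159, 0.102 or 0.0697, leaving out ventral midbrain 1, 2 or 3 gave 0.0504, 0.0535 or 0.0534, and fitting only these 2 regions gave 0.155.

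No difference in Lhx1 was called between any 2 regions. It was at 25.5, 23.0 and 25.2 RPKM in ventral midbrain 1, 2 and 3, at 25.6, 59.0 and 46.9 RPKM in forebrain 1, 2 and 3, and at 59.6, 52.7 and 50.2 RPKM in hindbrain 1, 2 and 3. The dorsal midbrain had 25.4, 34.9 and 54.3 RPKM and the alar plate 43.1, 31.6 and 6.90 RPKM. The ventral midbrain was even, with a mean of 24.6 ± 1.38 RPKM (SD, n = 3), and the hindbrain stood above it and above the alar plate without overlap, while the forebrain, dorsal midbrain and alar plate were each uneven. Forebrain 1, dorsal midbrain 3 and alar plate 3, the libraries with high Tcf7l2 and Gbx2, were the lowest, the highest and the lowest of their regions.

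The largest differences of Lhx1 were 1.29 ± 0.50 between the hindbrain and the alar plate (SE, limma adjusted p = 0.0993) and -1.11 between the ventral midbrain and the hindbrain (adjusted p = 0.36). Without alar plate 1 the hindbrain exceeded the alar plate by 1.78 (adjusted p = 0.0361). The ventral midbrain was called lower than the hindbrain without alar plate 3 (adjusted p = 0.0347) and with only these 2 regions fitted (adjusted p = 9.43e-05). Without the 3 libraries that stood apart, Lhx1 was called among the 5 regions (F test adjusted p = 0.000173), where 70.7% of all genes were. The ventral midbrain was then lower than the forebrain by -1.07, than the hindbrain by -1.11 and than the alar plate by -0.57 (adjusted p of 0.000638, 0.000285 and 0.0176), and against the alar plate the direction was the reverse of that with all libraries (0.18).

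The noncoding gene Lhx1os, listed under its older name 1500016L03Rik, starts 126 bases from Lhx1 on the other strand and runs away from it, and the genes do not overlap in RefSeq. Whether counting used strand is unknown, so reads between or across both genes cannot be assigned with certainty. It was at 23.9, 20.5 and 25.2 RPKM in ventral midbrain 1, 2 and 3, at 16.6, 59.1 and 47.8 RPKM in forebrain 1, 2 and 3, and at 61.9, 54.1 and 54.3 RPKM in hindbrain 1, 2 and 3. The dorsal midbrain had 16.2, 23.5 and 31.2 RPKM and the alar plate 36.2, 28.6 and 31.3 RPKM. Forebrain 1 was the lowest of its region for both genes. Hindbrain libraries overlapped only the forebrain for Lhx1os. The ratio of Lhx1 to Lhx1os was 0.220 in alar plate 3, against 0.924 to 1.74 in the other 14 libraries. The ratio of Lhx1 to Lhx5 was 0.259 in alar plate 3, against 0.928 to 2.45 in the others. Whether the unusual RPKM sum of alar plate 3 had a part in its low Lhx1 was not tested. Lhx1os was called higher in the hindbrain than in the dorsal midbrain by 1.27 (limma adjusted p = 0.0161).

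Lhx1 and Lhx5 had a Pearson r of 0.528 and a Spearman rho of 0.65 over the 15 libraries, lower than the r of Lhx2 with Lhx9. Lhx5 had an r of 0.863 with Lhx1os, against 0.589 for Lhx1 with Lhx1os. The genes most like Lhx1 were Hook1 (0.934), Kazn (0.923) and Mmp16 (0.923), and those most like Lhx5 were Crlf2 (0.906), Lypd1 (0.881) and Gpr39 (0.870). Companions of Lhx1 and Lhx5 in V1, V0 and GABAergic neurons were a list of 9 genes, also chosen with earlier results of these data known. Of these, 7 were lower in the ventral midbrain than in the hindbrain and none was called higher. Of all genes, 1.4% were lower and 2.39% higher. The 7 were Pax2, Evx1, Tal1, Gata2, Gad1, Gad2 and Slc32a1. Pax2 passed the filter only through the hindbrain, and Evx1 through hindbrain 2, hindbrain 3 and alar plate 1. Nothing is therefore read from their calls here or in the hindbrain against the dorsal midbrain. The counts and medians of the 9 in both pairs include Pax2 and Evx1 and are description only. Gad1, a GABA-synthesising enzyme gene, was at 2.06, 4.23 and 4.74 RPKM in the ventral midbrain, against 31.6, 28.8 and 24.8 RPKM in the hindbrain. The remaining pair were not called. En1, a midbrain and isthmus factor that also marks V1 interneurons, was at 67.0, 76.7 and 67.5 RPKM in the ventral midbrain, against 39.7, 8.56 and 4.55 RPKM in the hindbrain, a difference of 2.46 with no overlap (limma adjusted p = 0.0624). Gata3 differed by -1.72 (limma adjusted p = 0.0999). The median of the 9 was -2.06, which is the value of Evx1 itself, against 0.00 for all genes. In the hindbrain against the dorsal midbrain, 5 of the 9 were higher (Pax2, Evx1, En1, Gad2 and Slc32a1) and none was lower, where 14.7% of all genes were higher and 17.4% lower, with a median of 1.24 against -0.05 for all genes. The ventral midbrain against the forebrain and against the alar plate had Tal1, Gad1, Gad2 and Slc32a1 lower and En1 higher. Of all genes, 1.94% and 5.13% were lower in these pairs and 6.39% and 9.12% higher. Against the dorsal midbrain Tal1, Gata2 and Gad1 were lower and En1 higher, where 12.4% were lower and 11.4% higher. Lhx5 was not called in any of these ventral midbrain pairs (-0.10, -0.42 and -0.05).

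Lhx6 and Lhx8, the basal forebrain paralogues, were close to 0 everywhere. Lhx6 had 0, 1 and 1 reads in ventral midbrain 1, 2 and 3, forebrain libraries had 1, 0 and 2, and hindbrain libraries had 2, 0 and 1. Dorsal midbrain libraries had 7, 10 and 7 reads, or 0.164, 0.222 and 0.165 RPKM, and the alar plate 5, 3 and 0. The dorsal midbrain libraries were the highest. The F test without a filter called Lhx6 (adjusted p = 0.00402), where 24.8% of 19912 genes were called. Lhx8 was at 0 reads in 12 libraries and at 1 read in hindbrain 2, dorsal midbrain 2 and dorsal midbrain 3. Neither gene was detectable at this depth in any forebrain library. Companions of these genes in the basal forebrain were uneven among the forebrain libraries. Dlx1 was at 26.1, 0.0370 and 5.89 RPKM in forebrain 1, 2 and 3 and also at 20.2 RPKM in alar plate 3, and Nkx2-1 was at 0.0343, 0.538 and 13.3 RPKM in forebrain 1, 2 and 3. Of the 8 companions 5 were tested, and none was called between the forebrain and any other region.

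**Figure D4:**
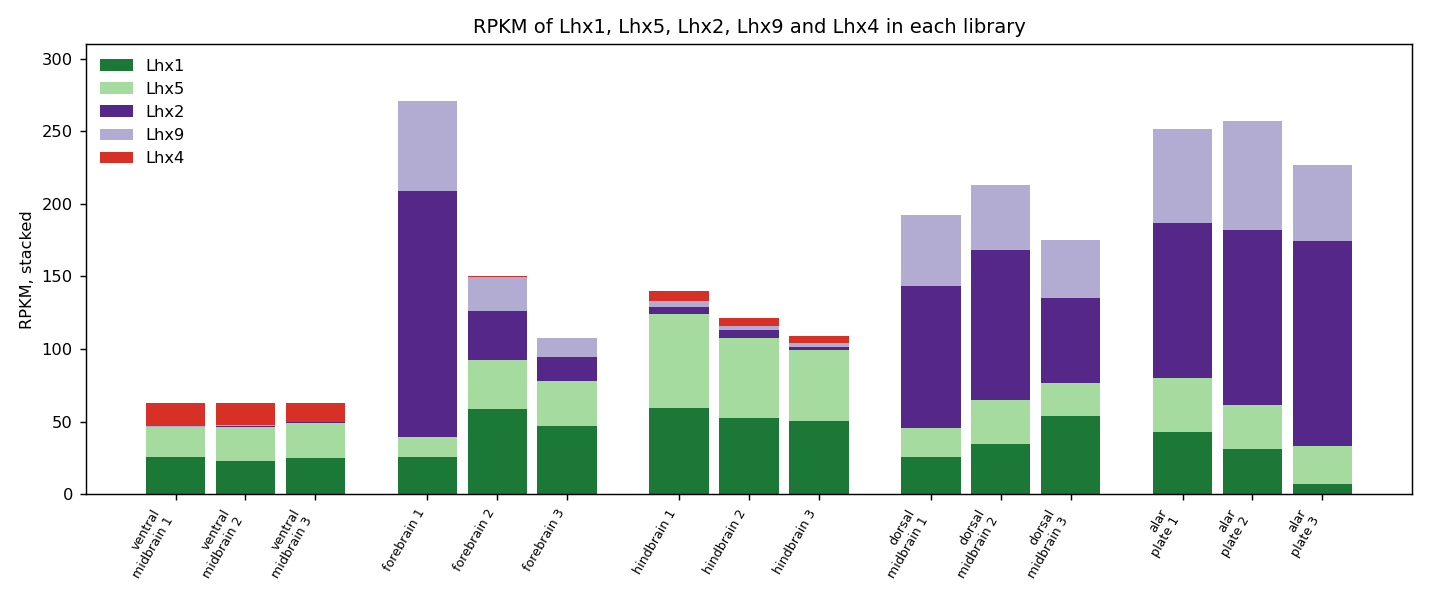
Stacked RPKM of Lhx1, Lhx5, Lhx2, Lhx9 and Lhx4 in each library (linear axis from 0). Lhx1 and Lhx5 make up most of the total in the ventral midbrain and hindbrain, Lhx2 and Lhx9 in the dorsal midbrain and alar plate, and forebrain 1 differs from forebrain 2 and 3.

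Taken over the 8 genes, the regions differed in both the amount and the makeup of Lhx RNA. The summed level was 63.0 ± 0.239 RPKM in the ventral midbrain, 176 ± 84.6 in the forebrain, 124 ± 15.6 in the hindbrain, 194 ± 18.8 in the dorsal midbrain and 245 ± 16.3 in the alar plate (SD, n = 3 each). Lhx1 and Lhx5 made up 73.8 to 77.9% of it in the ventral midbrain and 88.1 to 90.5% in the hindbrain. Lhx4 added 20.8 to 25.1% in the ventral midbrain and 4.52 to 5.20% in the hindbrain. Lhx2 and Lhx9 made up 56.3 to 76.2% in the dorsal midbrain and 67.9 to 85.2% in the alar plate, against 1.14 to 1.18% in the ventral midbrain. Forebrain 1 had 85.4% Lhx2 and Lhx9, the highest share of any library, while forebrain 2 and 3 had 38.4% and 27.3%.

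The partners of Lhx proteins were described from a list of 14 genes, chosen with earlier results of these data known, all of which passed the filter. Of the other LIM homeobox genes, Lmx1a, a factor of dopaminergic progenitors, was at 81.8, 74.4 and 68.6 RPKM in ventral midbrain 1, 2 and 3, and at 0.207, 6.93 and 41.3 RPKM in forebrain 1, 2 and 3, and stayed below 1 RPKM in the other regions. The call of Lmx1a against the forebrain was lost in 7 of 25 alternatives. Lmx1b, which also acts in serotonergic neurons, averaged 45.2 ± 0.920 RPKM in the ventral midbrain, 7.78 ± 9.75 in the forebrain, 13.0 ± 1.83 in the hindbrain, 2.85 ± 0.316 in the dorsal midbrain and 0.209 ± 0.224 in the alar plate (SD, n = 3 each). Isl1, a motor neuron factor, was at 20.1, 14.7 and 14.3 RPKM in the ventral midbrain and at 18.4 RPKM in alar plate 3, against 1.09 and 0.826 RPKM in alar plate 1 and 2. Isl2, its paralogue, was at most 0.0953 RPKM in the ventral midbrain, forebrain and hindbrain, against 1.68, 3.05 and 0.133 RPKM in the dorsal midbrain and 1.05, 1.48 and 0.401 RPKM in the alar plate. The call of Isl1 against the hindbrain (limma adjusted p = 0.0458) was lost in 16 of 25 alternatives.

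Among LIM-only genes, whose products hold LIM domains but no homeodomain and bind the same cofactor, Lmo1 and Lmo3 were lower in the ventral midbrain than anywhere else. Lmo1 was at 5.78, 5.39 and 4.76 RPKM in ventral midbrain 1, 2 and 3, against at least 22.6 RPKM in every other library. Its log2 difference was -2.28 from the forebrain, -2.05 from the hindbrain, -3.08 from the dorsal midbrain and -3.52 from the alar plate (limma adjusted p of 0.000239, 0.00104, 1.23e-05 and 5.46e-06). Lmo3 differed by -1.62, -0.91, -1.77 and -1.94 in the same order (adjusted p of 0.000379, 0.0354, 0.000129 and 6.94e-05), of which the difference from the hindbrain was lost when any 1 of the 6 libraries of that pair was left out, with the replicate block and in limma-voom on recovered reads. Lmo4 was higher in the ventral midbrain than in the dorsal midbrain by 0.68 (adjusted p = 0.0293), a call lost when any 1 ventral midbrain library, dorsal midbrain 1 or dorsal midbrain 3 was left out. Lmo2 was called in no pair, with region means of 6.67 to 7.81 RPKM.

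The cofactors varied little in comparison. Ldb1, the shared partner of LIM domains, averaged 89.2 ± 3.44 RPKM in the ventral midbrain, 91.8 ± 7.52 in the forebrain, 84.5 ± 6.23 in the hindbrain, 95.9 ± 4.25 in the dorsal midbrain and 108 ± 3.15 in the alar plate (SD, n = 3 each). It was lower in the ventral midbrain and in the hindbrain than in the alar plate, by -0.27 and -0.35 (limma adjusted p of 0.0495 and 0.022), calls that were lost in 16 and 4 of 25 alternatives. Ssbp3, which stabilises Ldb1 complexes, followed with -0.30 and -0.29 (adjusted p of 0.0304 and 0.0449), calls that were lost in 6 and 14 of 25 alternatives. Quantile normalization ended the calls of both genes. Rlim, a ubiquitin ligase that acts on Ldb proteins, was called in no pair and had region means of 12.0 to 13.5 RPKM. Ldb2 was the most variable cofactor, at 2.11, 2.75 and 3.27 RPKM in ventral midbrain 1, 2 and 3 and at 7.05, 9.13 and 9.93 RPKM in forebrain 1, 2 and 3. It was lower in the ventral midbrain than in the forebrain by -1.39 and than in the alar plate by -1.11 (adjusted p of 8e-04 and 0.00288).

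Over the list, the ventral midbrain against the forebrain had 2 genes higher and 3 lower of 14, where 8.33% of all genes were called. The median log2 difference was -0.09, against 0.00 for all genes. Against the hindbrain the ventral midbrain had 2 higher and 2 lower, where 3.8% of all genes were called. Against the dorsal midbrain it had 4 and 3, where 23.9% were, and against the alar plate 2 and 5, where 14.2% were. The hindbrain against the dorsal midbrain had 0 higher and 3 lower, where 32.1% were called, and against the alar plate 1 and 4, where 9.97% were. The forebrain against the dorsal midbrain had 3 higher and 1 lower, where 27.3% were called. The other pairs had none, where 0.0946 to 2.7% were called. In all 35 of 140 gene-by-pair tests were called, 14 higher and 21 lower, where 12.4% of all such tests were called. Isl2 passed the filter only through dorsal midbrain and alar plate libraries, so nothing is read from its calls against the dorsal midbrain. Lmx1a passed only through ventral midbrain and forebrain libraries. Nothing is therefore read from its calls against the hindbrain, dorsal midbrain or alar plate, which are among those counted. Without the 3 libraries that stood apart 76 were called, where 37.3% of all such tests were. Leaving out single libraries gave 24 to 49.

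**Figure D5:**
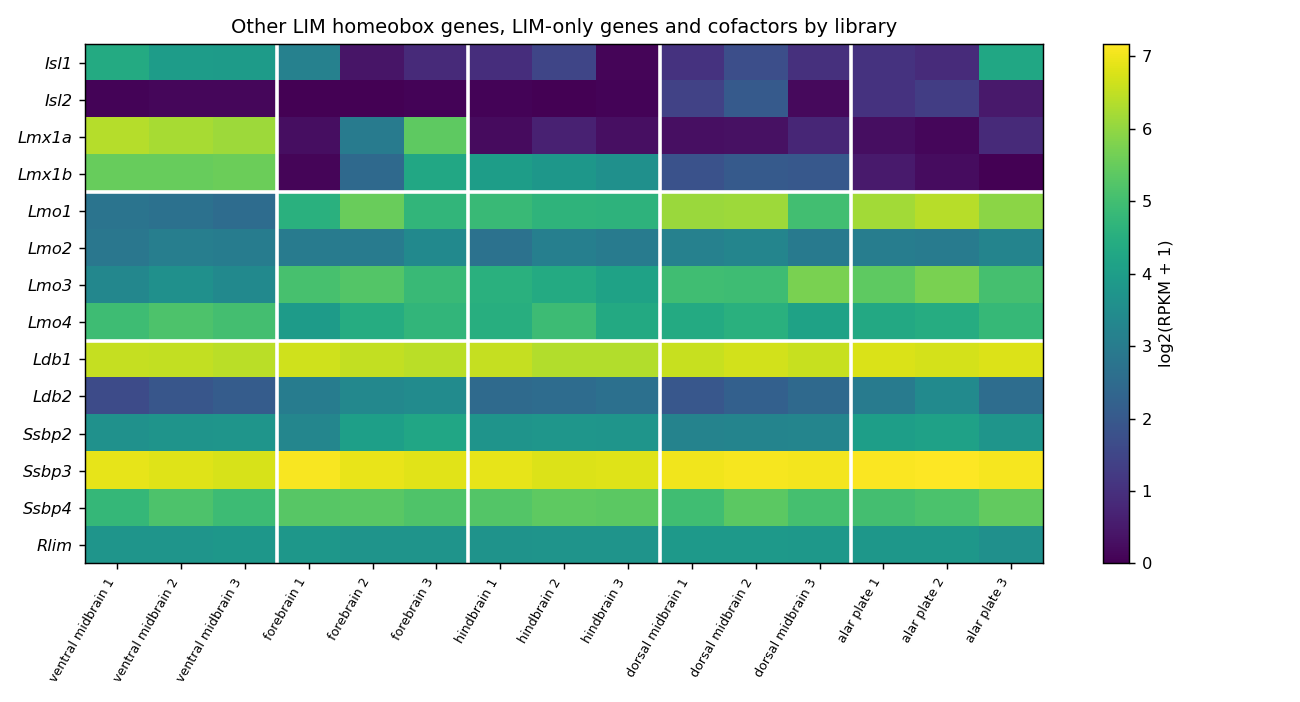
Level of the 14 partner genes, as log2(RPKM + 1), in the 15 libraries, with white lines between regions and between other LIM homeobox genes (top), LIM-only genes and cofactors (bottom). Lmx1a and Lmx1b are brightest in the ventral midbrain, Lmo1 and Lmo3 are darkest there, and the cofactors Ldb1, Ssbp3 and Rlim are nearly even across libraries.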

How the data were processed

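RNA from 15 dissected tissue samples was sequenced, 3 per region. The authors deposited 1 table of RPKM values with 1 column per library. Bowtie and the build mm9 are named in the submitters' processing notes, per the labels. The sources used here give no aligner version, annotation, counting method, use of strand or filter, so reads shared by overlapping genes cannot be assigned. The members and lists were chosen with earlier results of these data known.

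Reads were recovered from the steps of the deposited RPKM values (tolerance 0.02 to 0.15 reads), which gave whole reads for 16595 of 16612 genes above 0 in at least 10 libraries (99.9%). Members with fewer such libraries had their largest common step taken as 1 read. Differences were fitted with limma 3.58.1 (R 4.3.3) and a variance trend on log2(RPKM + 1) in 1 fit of 5 regions, for genes with at least 1 RPKM in at least 3 libraries. Tests were two-sided, adjusted within each comparison, and the fit was tested on simulated data. Genes named were the 8 members, the lists, and for each tested member the 3 genes of highest Pearson r among those with at least 5 RPKM in at least 3 libraries. Replicate numbers did not pair libraries throughout: 18 of 30 same-numbered pairs had deviations with r above 0.1. Alternatives were other pseudocounts, filters, scalings, libraries left out, a replicate block, fits of 2 regions, and limma-voom on recovered reads. Promoter sequence came from RefSeq (GRCm38.p6), another build than the values, and was trimmed of GENCODE exons of that build. Some genes of the marker and companion lists, and the counts of the list of motor and V2 neuron genes, are not reported here.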

Additional observations from a re-analysis of the deposited data

How the results depend on the processing

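Of the 23 differences called among the Lhx genes, 6 were Lhx4 contrasts that the filter fixed, whose stability says nothing. Of the other 17, 11 kept their direction and their call under every alternative that could be fitted, and 6 lost the call under at least 1. These were Lhx5 and Lhx9 in the ventral midbrain against the hindbrain, Lhx2, Lhx5 and Lhx9 in the forebrain against the hindbrain, and Lhx4 in the ventral midbrain against the hindbrain. The count of calls was 23 of 50 tests with all libraries, where 12.4% of all such tests were called. Leaving out the 3 libraries that stand apart gave 38, where 37.3% were. The count was 20 to 29 with single libraries left out, where 6.7 to 20.2% were, and 31 of 80 with no filter, where 8 genes were fitted and 9.15% of all tests were called. It was 23 with the filter at 5 RPKM and after quantile normalization, and 16 in limma-voom on recovered reads, an alternative chosen after seeing the data in which Lhx4 was not fitted because its reads were recovered from too few libraries. For the list of partners the count was 35, and 76 without the 3 libraries that stand apart, with 24 to 49 for single libraries left out. The 35 include the Isl2 calls against the dorsal midbrain, which the filter favoured. It also favoured the Lmx1a calls against the hindbrain, dorsal midbrain and alar plate. The number of Lhx genes called among the 5 regions was 4, and 3 to 4 with single libraries left out. Without the 3 libraries that stand apart, Lhx1 reversed between the ventral midbrain and the alar plate, at -0.57. The cause was not tested. The replicate block gave 23 calls among the Lhx genes and 37 among the partners, and it changed no call of an Lhx gene. Of the 15 libraries, 12 correlated best with a library of their own number. The count test on recovered reads with edgeR was not run, since the values are RPKM. Depth limits Lhx3, Lhx6 and Lhx8, with at most 12, 10 and 1 reads in a library.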
